A study of Mus musculus with 5 samples.

Results

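Voltage-gated calcium and sodium channels are described here as a set of 40 mouse genes, 26 for calcium channels and 14 for sodium channels, taken from a table of 55573 genes that held 21900 protein-coding genes. A member was any protein-coding gene whose symbol marked it as a calcium channel alpha1, alpha2delta, beta or gamma subunit (Cacna1, Cacna2d, Cacnb and Cacng genes) or as a sodium channel subunit (Scn genes), and no measured value entered that choice. Their RNA was sequenced from Neuro-2A (N2A), a line of mouse neuroblastoma cells, after transient transfection with 60 pmol of a commercial negative control siRNA (siCtl, n = 2, replicates 1 and 3) or of an siRNA to Upf1 (siUpf1, n = 3, replicates 1, 2 and 3). Upf1 encodes the RNA helicase at the centre of nonsense-mediated mRNA decay (NMD), the pathway that removes mRNAs whose translation ends in certain contexts, and the question was which mRNAs change in level when it is depleted. All libraries came from the same line grown in the same medium, so the siRNA was the only labelled difference between the groups. The labels do not say whether replicates came from separate cultures, and the study describes the western blots of this knockdown as independent experiments without tying each library to one, so the p-values measure the spread between these libraries, which may be partly technical.

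In these channels the pore is formed by a single large alpha subunit (alpha1 in calcium channels) that opens when the membrane depolarises. Calcium channel beta and alpha2delta subunits bring the pore to the membrane and tune its opening, and sodium channel beta subunits are adhesion-like proteins that tune sodium channel gating. Pores are sorted into L-type, P/Q-type, N-type, R-type and T-type calcium channels by their currents. The Cacng genes were named as calcium channel gamma subunits, but most of their proteins are known as TARPs, the auxiliary subunits of AMPA-type glutamate receptors. In neurons, sodium channels drive the action potential, and N-type and P/Q-type calcium channels trigger transmitter release.

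The siRNA target was lower in every siUpf1 library. Upf1 had 5217 and 5243 normalised counts (read counts divided by a size factor for each library) in siCtl and 2403, 2496 and 2449 in siUpf1. Its mean in siUpf1 was 46.8% of that in siCtl (log2 fold change -1.10, SE 0.051, adjusted p = 7.27e-101). Libraries held 20402205 to 27717594 assigned reads. Across genes, which are no independent replicates, Pearson's r of log2 values ran from 0.997 to 0.998 for libraries of 1 group and from 0.984 to 0.985 for libraries of different groups. All 10 neuroblastoma and neuron markers examined averaged 10 or more normalised counts, and their summed level was 38647 to 39080 in siCtl and 44133 to 46617 in siUpf1. Of these 10 markers 6 were called higher and 1 lower (adjusted p under 0.05), where 21.4% of all tested genes were called higher and 22.3% lower, and their part in the channel gene results was not tested. Of 22 markers of muscle, glia, leukocytes and fibroblasts, 1 was called, the astrocyte gene Aldh1l1 (lower, log2 fold change -1.20, adjusted p = 0.0425). Many of the 22 had too few reads for an adjusted p and so could not be called. The count of 1 is therefore not a share of tested genes. Summed normalised counts in siCtl and siUpf1 were 462 to 501 and 518 to 548 for oligodendrocyte markers (mostly Mbp), 439 to 483 and 439 to 487 for cardiac muscle (mostly Tnnt2) and 181 to 239 and 164 to 186 for skeletal muscle. They were 82.1 to 86.0 and 88.9 to 92.9 for fibroblasts, 34.0 to 52.4 and 23.2 to 32.6 for astrocytes, and at most 5.66 in any library for microglia and leukocytes. Myl7 (cardiac), Mog (oligodendrocyte), Cx3cr1 (microglia) and Lum (fibroblast) had no read.

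Of the 40 channel genes, 22 were expressed (a mean of 10 normalised counts or more), 14 had at least 1 read but a mean under 10, and 4 had no read in any library. The lowest expressed member was Cacna2d2, with a mean of 13.5 normalised counts, and the highest below the threshold was Cacna1s, with 4.69. Levels of different genes were compared as RPKM, the read count divided by exon length in kilobases and by library depth. On that scale each family was led by 1 gene or a few. Cacng7, encoding a TARP, stood highest, at 37.8 ± 1.0 RPKM in siCtl. It was followed by Cacnb3, encoding a beta subunit (11.5 ± 0.34), and Cacna1b, the N-type pore (10.6 ± 0.66), whose siCtl libraries were close to each other. Cacng3, another TARP gene, had 9.33 RPKM, Scn3b, a sodium channel beta subunit, had 9.03 ± 0.19 and Scn8a, the leading sodium channel pore, had 4.25. The order of neighbours depends on the exon length used: with that of the longest transcript, Scn3b (11.9) stood above Cacna1b (10.9), while Cacng7 (41.7) and Cacnb3 (16.8) still led.

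**Figure D1:**
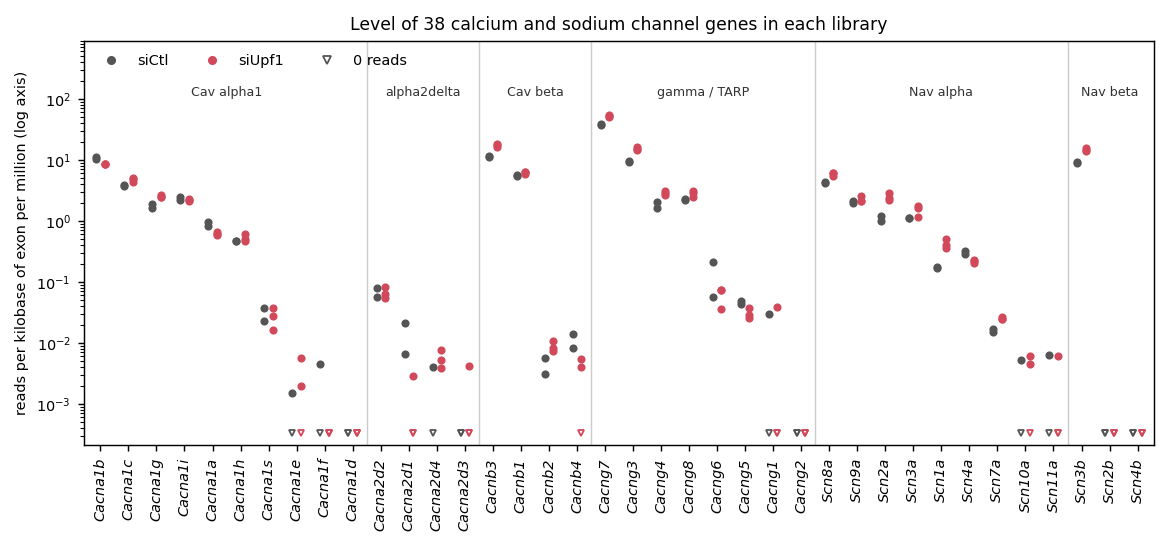
Level of 38 channel genes in each library, as RPKM on a log axis, by family. Grey points are the 2 siCtl libraries, red points the 3 siUpf1 libraries, and open triangles at the bottom mark libraries with 0 reads. Most expressed genes stand well above the 14 genes with few reads and the 4 with none, but Cacna2d2 (0.0688 in siCtl), the lowest expressed gene, lies in the range of Cacng6 (0.133), a low gene with short exons.

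Silent members came from every family. Among calcium channel pores, Cacna1d (L-type) had no read and Cacna1f, the retinal L-type pore, had 1 read over the 5 libraries. Cacna1s, the skeletal muscle L-type pore, had 23 reads in all and Cacna1e, the R-type pore, had 6. Of the alpha2delta genes, Cacna2d1 had 10 reads, Cacna2d4 had 5 and Cacna2d3 had 1, so Cacna2d2 was the only one of the 4 that was expressed, at 0.0688 RPKM in siCtl. Cacnb2 (12 reads) and Cacnb4 (7 reads) were nearly silent beside the other two beta genes. Of the gamma and TARP genes, Cacng6 had 22 reads, Cacng5 had 18, Cacng1, the skeletal muscle gamma subunit, had 2, and Cacng2, which encodes stargazin, had none. Scn7a (20 reads) and the sensory neuron pores Scn10a (3 reads) and Scn11a (2 reads) were the low sodium channel pores. Among the sodium channel beta genes, Scn2b and Scn4b had no read.

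No silent member had more than 10 reads in any library, and none received an adjusted p. Cacna2d1 had 2 and 7 reads in siCtl and 0, 0 and 1 in siUpf1, and Cacnb4 had 3 and 2 against 1, 1 and 0. Cacng6 had 10 and 3 reads in siCtl and 4, 3 and 2 in siUpf1, so its groups overlapped. At these counts a difference between the groups was not detectable.

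By their medians, the start windows of silent genes did not hold fewer CG dinucleotides than those of expressed genes. RefSeq windows of the build GRCm38.p6, running from 250 bases before to 50 bases after an annotated start, were matched by symbol for 30 of the 40 members and gave 41 windows. CG dinucleotides mark the CpG-rich promoters of many widely expressed genes. The median was 9 CG in the windows of expressed members (14 genes, 20 windows), 10 in those of low members (12 genes, 16 windows) and 20 in those of members with no read (4 genes, 5 windows). Over all 32851 windows of the table the median was 7. The letters GGGCGG (a GC box), searched on both strands, were in 39.0% of the members' windows and 35.7% of all windows, and TATAAA was in 4.9% and 13.6%. TTCAGCACC and GGACAGC, the left and right parts of the RE1 element bound by the neuronal repressor REST, were in none and in 4.9% of the members' windows, against 0.4% and 6.6% of all windows. Which start N2A cells use was not measured, and a match is a description of these letters only.

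The 250 bases before the start are shown for 4 members, chosen after their values were seen, to set the start sequences of the strongest sodium channel changes and of the leading calcium channel pore beside that of a silent pore. Capitals mark CG dinucleotides, and each run reads 5′ to 3′ on the strand of the gene, from RefSeq on GRCm38.p6. Scn2a is at chr2:65620519-65620768 (plus strand, the first of its 2 starts in the table), Scn1a at chr2:66440838-66441087 (minus strand), Cacna1b at chr2:24763153-24763402 (minus strand) and Cacna1d at chr14:30353487-30353736 (minus strand, the second of its 2 starts).
Scn2a: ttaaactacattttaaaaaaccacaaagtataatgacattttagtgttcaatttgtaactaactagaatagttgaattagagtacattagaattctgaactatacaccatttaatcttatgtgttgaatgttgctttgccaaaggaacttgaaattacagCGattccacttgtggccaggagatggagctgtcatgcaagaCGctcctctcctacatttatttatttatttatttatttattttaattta
Scn1a: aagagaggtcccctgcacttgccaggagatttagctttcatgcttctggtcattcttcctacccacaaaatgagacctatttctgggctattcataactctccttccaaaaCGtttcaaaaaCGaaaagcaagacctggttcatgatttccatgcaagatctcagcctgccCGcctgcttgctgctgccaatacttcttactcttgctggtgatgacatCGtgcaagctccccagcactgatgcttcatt
Cacna1b: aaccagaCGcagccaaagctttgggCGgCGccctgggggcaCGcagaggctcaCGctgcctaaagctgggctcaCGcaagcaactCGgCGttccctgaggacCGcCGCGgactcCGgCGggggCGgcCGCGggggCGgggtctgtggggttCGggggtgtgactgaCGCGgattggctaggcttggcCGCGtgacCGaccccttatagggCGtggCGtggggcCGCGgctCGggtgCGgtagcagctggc
Cacna1d: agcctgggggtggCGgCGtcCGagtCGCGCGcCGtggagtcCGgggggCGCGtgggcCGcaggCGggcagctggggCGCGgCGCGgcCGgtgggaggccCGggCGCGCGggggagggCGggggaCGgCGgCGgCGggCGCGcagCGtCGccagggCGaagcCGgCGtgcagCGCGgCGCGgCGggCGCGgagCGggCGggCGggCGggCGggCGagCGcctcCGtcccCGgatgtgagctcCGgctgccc
The printed stretches hold 2 CG for Scn2a, 4 for Scn1a, 29 for Cacna1b and 50 for Cacna1d. By the whole windows of 300 bases, 23.3% of all windows had fewer CG than that of Scn2a, 38.0% fewer than that of Scn1a and 93.0% fewer than that of Cacna1b. The Cacna1d window had 63 CG, near the maximum of 67 over all windows, although the gene had no read. The starts not printed differed: the other Scn2a window had 9 CG (54.2% of all windows had fewer) and the other Cacna1d window had 4 CG (31.4% had fewer), and both held TATAAA, so the contrast between these genes depends on the start chosen.

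Among the 22 expressed members, 14 (63.6%) were called at an adjusted p under 0.05 in siUpf1 against siCtl, beside 43.7% of the 15581 genes tested. Of these, 11 (50%) were called higher and 3 (13.6%) lower, where 21.4% of all tested genes were called higher and 22.3% lower. Among tested protein-coding genes 24.2% were called higher and 26.3% lower. The groups did not overlap for 18 of the 22 members (81.8%), against 68.5% of all tested genes. The median log2 fold change of the expressed members was 0.30 and that of all tested genes was -0.00. Most changes were small, and 2 members (9.09%), Scn1a and Scn2a, rose by at least 1 log2 unit, beside 2.73% of all tested genes. In bulk RNA, a change in the share of cells that express a gene and a change in its RNA per cell cannot be told apart.

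**Figure D2:**
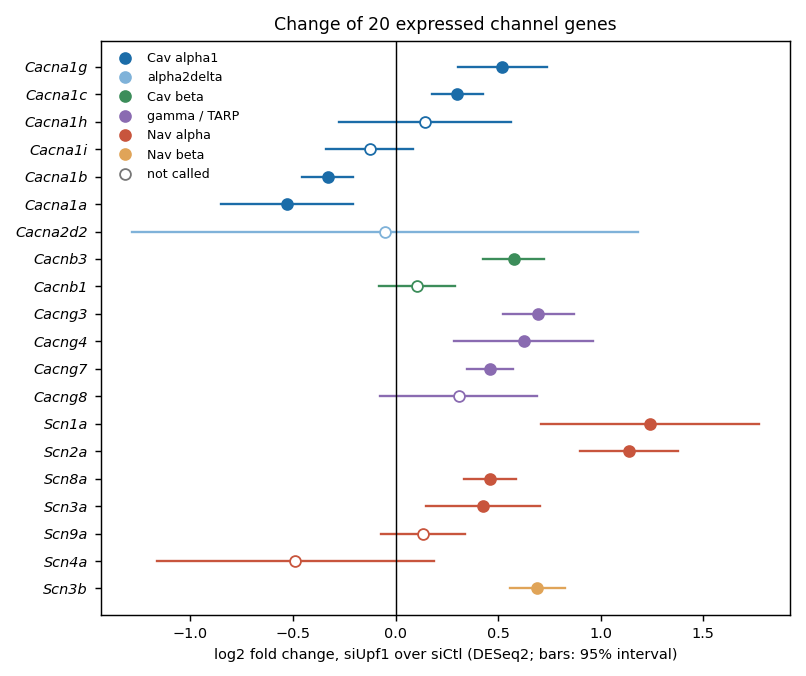
Log2 fold change of 20 expressed channel genes in siUpf1 against siCtl, with bars for the 95% confidence interval from the DESeq2 standard error. Colours mark families and open circles mark genes that were not called. The 11 genes called higher lie between 0.30 and 1.24, and Cacna1b and Cacna1a, called lower, lie at -0.33 and -0.53.

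The 2 largest changes among called members were those of the sodium channel pores Scn1a and Scn2a, and every called sodium channel pore rose. Of 10 pore genes 7 were expressed, and 4 of these rose, none fell and 3 were not called. Scn1a, a pore known from inhibitory interneurons, had 50.3 and 48.1 normalised counts in siCtl and 135, 115 and 98.1 in siUpf1. Its lowest siUpf1 library stood well above both siCtl libraries, and the fold was 2.36 (log2 fold change 1.24, SE 0.271, adjusted p = 2.12e-05). Scn2a, the early pore of excitatory neurons, had 322 and 385 normalised counts in siCtl and 881, 707 and 743 in siUpf1. These groups were also far apart, with replicate 1 the highest siUpf1 library for both genes, and Scn2a rose 2.20-fold (1.14, SE 0.122, adjusted p = 2.59e-19). Scn2a is at chr2:65620771-65767447 on the plus strand and Scn1a at chr2:66270778-66440840 on the minus strand of GRCm38.

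Scn8a, the pore of mature axon initial segments and nodes, was the most abundant sodium channel pore per length in both groups. It had 1722 and 1662 normalised counts in siCtl and 2343, 2219 and 2409 in siUpf1, with no overlap (log2 fold change 0.46, SE 0.064, adjusted p = 7.23e-12). Scn3a, a pore of the developing brain, had 355 and 344 against 525, 375 and 503. Replicate 2 of siUpf1 lay close to siCtl for this gene, and its rise of 0.43 (SE 0.142, adjusted p = 0.00769) was lost when any of 4 libraries was left out, with adjusted p-values of 0.0668 and 0.114 without siCtl replicates 1 and 3 and of 0.0964 and 0.0811 without siUpf1 replicates 1 and 3. It was also lost, at 0.0732, when each library's trend with length and GC content was removed.

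The pores that were not called included Scn9a and Scn4a. Scn9a, a pore of peripheral sensory neurons, had 690 and 634 normalised counts in siCtl and 809, 688 and 678 in siUpf1, and the groups overlapped (0.13, 95% confidence interval -0.07 to 0.34). Scn4a, the skeletal muscle pore, had 57.7 and 50 against 35.6, 41.4 and 38.3, which did not overlap, but its interval of -1.16 to 0.19 included 0. The intervals of both genes leave room for changes in either direction.

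Of the sodium channel beta genes, Scn3b rose. It had 1234 and 1256 normalised counts in siCtl and 2111, 1930.3 and 1983 in siUpf1, so every siUpf1 library stood far above siCtl (log2 fold change 0.69, SE 0.069, adjusted p = 4.1e-22).

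**Figure D3:**
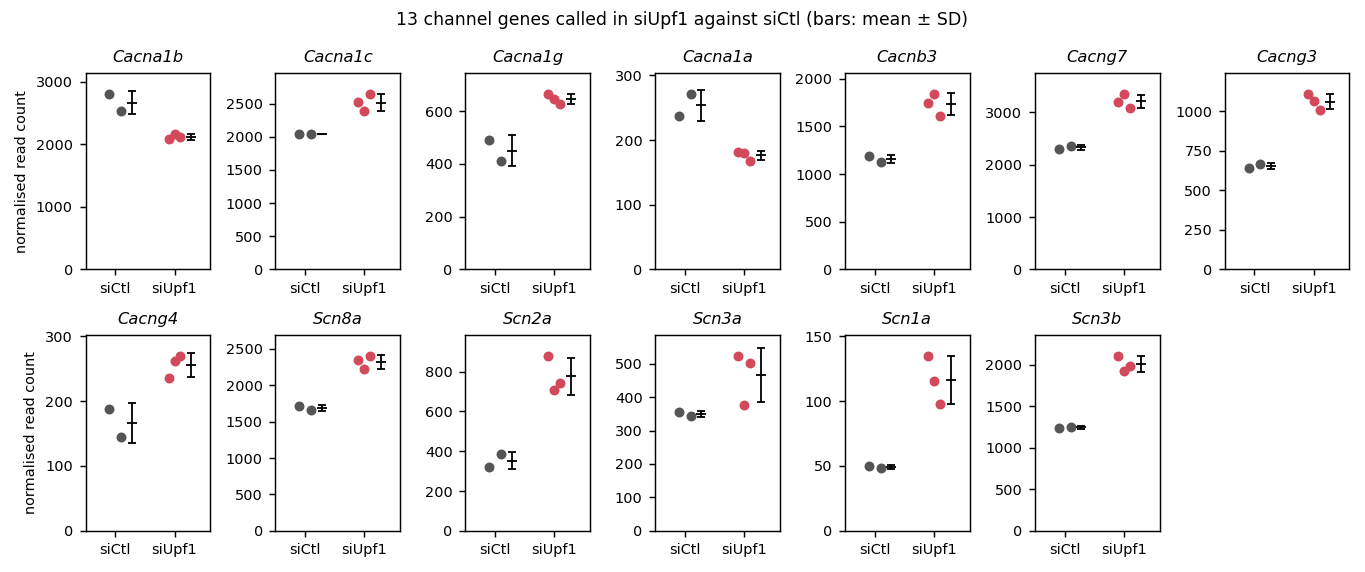
Normalised read counts of 13 called channel genes, with 1 panel for each gene and its own axis starting at 0. Points are libraries (2 siCtl, 3 siUpf1) and bars give the mean and SD. The groups do not overlap in any panel, but the genes were chosen by their calls. Among all tested genes, 68.5% also had groups that did not overlap.

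Calcium channel pores moved in both directions. Of 10 pore genes 6 were expressed, of which 2 rose, 2 fell and 2 were not called, and their summed level was 19.3 to 20.6 RPKM in siCtl and 18.7 to 19.6 in siUpf1. The pores of presynaptic terminals fell. Cacna1b, the N-type pore and the most abundant one per length, had 2802 and 2538 normalised counts in siCtl and 2079, 2173 and 2117 in siUpf1 (log2 fold change -0.33, SE 0.063, adjusted p = 8.2e-07). Cacna1a, the P/Q-type pore, had 237 and 271 against 181, 179 and 168 (-0.53, SE 0.165, adjusted p = 0.00414). For both genes every siUpf1 library was below both siCtl libraries, but the call of Cacna1a ended without siCtl replicate 3 (adjusted p = 0.167).

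The L-type and 1 T-type pore rose. Cacna1c, the L-type pore of neurons and heart, had 2045 and 2043 normalised counts in siCtl and 2520, 2388 and 2640 in siUpf1 (log2 fold change 0.30, SE 0.062, adjusted p = 7.26e-06). Cacna1g, a T-type pore that opens at low voltage, had 493 and 409 against 664, 645 and 627 (0.52, SE 0.111, adjusted p = 1.38e-05). Neither gene's groups overlapped. The other two T-type pores were not called. Cacna1i had 623 and 555 normalised counts in siCtl and 506, 555 and 558 in siUpf1 (-0.13, 95% confidence interval -0.34 to 0.09), and Cacna1h had 117 and 115 against 142, 118 and 124 (0.14, interval -0.27 to 0.56). With the trend with length and GC content removed, Cacna1i was called lower (-0.25, adjusted p = 0.0312).

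The make-up of the calcium channel pore RNA shifted while its sum stayed in a narrow range. Cacna1b held 53.8% and 52.7% of the summed RPKM of pore genes in siCtl and 43.9%, 45.5% and 44.0% in siUpf1. Cacna1c held 18.4% and 19.9% in siCtl and 25%, 23.5% and 25.8% in siUpf1, and Cacna1g held 9.28% and 8.34% against 13.8%, 13.3% and 12.8%. The groups did not overlap for any of these 3 shares, which were not tested and which, as parts of a whole, are bound to each other. Shares also depend on the exon length used. The summed exons of Cacna1c measure 21191 nt and its longest transcript 13162 nt, against 9942 and 9736 nt for Cacna1b. With the longest transcript as the length, the share of Cacna1c would be larger and that of Cacna1b smaller in every library. In the sodium channel pores Scn8a kept the largest share, at 46.6% and 45.9% in siCtl and 43.0% to 47.1% in siUpf1. Scn2a went from 10.8% and 13.2% to 20.0%, 18.3% and 18.0%, and stood above Scn9a (23.1% and 21.6% in siCtl, 18.3%, 17.8% and 16.4% in siUpf1) in each siUpf1 library but in neither siCtl library. The summed level of sodium channel pores was 9.16 to 9.23 RPKM in siCtl and 11.8 to 14.2 in siUpf1. Scn9a itself had a mean of 2.05 RPKM in siCtl and 2.29 in siUpf1, so its lower share went with a larger sum.

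**Figure D4:**
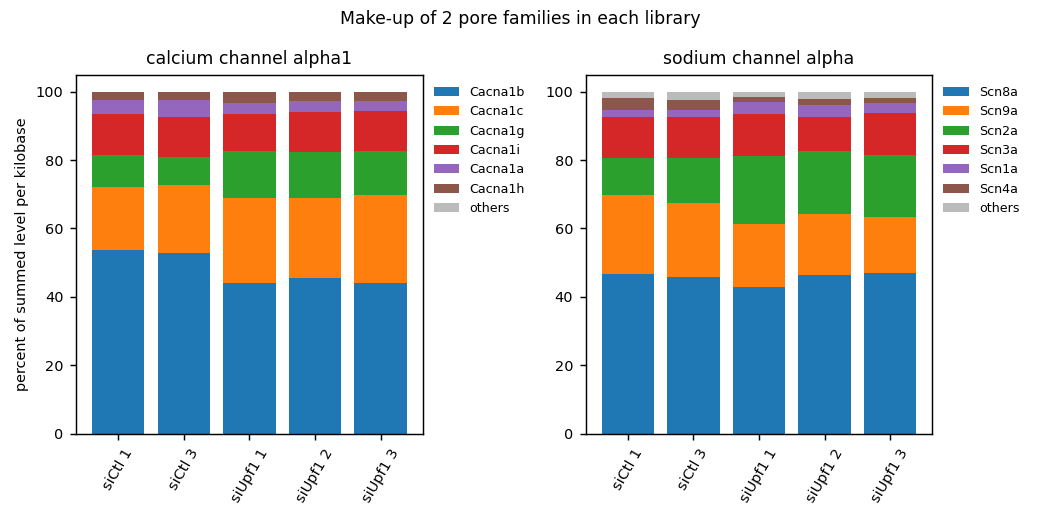
Stacked bars of the percent of a family's summed RPKM held by each gene, for calcium channel pores and sodium channel pores, with 1 bar for each of the 2 siCtl and 3 siUpf1 libraries. Cacna1b falls from above 52% to below 46% of calcium channel pore RNA, and Scn2a rises from below 14% to above 17% of sodium channel pore RNA. Percentages rest on the summed exon length of each gene and depend on the length used.

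Among the calcium channel beta genes and the gamma and TARP genes, the called members (1 and 3 genes) were higher, and no alpha2delta gene was called. Cacnb3, the main beta subunit here, had 1191 and 1128 normalised counts in siCtl and 1747, 1836 and 1606 in siUpf1 (log2 fold change 0.58, SE 0.076, adjusted p = 5.71e-13). Cacnb1, the other expressed beta gene, had 653 and 629 against 695, 674 and 698, which did not overlap but differed little (0.11, 95% confidence interval -0.08 to 0.29). Cacna2d2, the expressed alpha2delta gene, had 11.5 and 16.0 in siCtl and 16.0, 11.3 and 12.5 in siUpf1, so no difference was detectable at its depth. Its interval ran from -1.29 to 1.18.

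Of the 8 gamma and TARP genes 4 were expressed, and 3 of these rose and none fell. Cacng7 had 2294 and 2358 normalised counts in siCtl and 3187, 3339.7 and 3082 in siUpf1 (log2 fold change 0.46, SE 0.058, adjusted p = 2.35e-14). Cacng3 had 640.5 and 667 against 1107, 1062 and 1010 (0.70, SE 0.088, adjusted p = 3.2e-14). Each siUpf1 library was clearly above both siCtl libraries for both TARPs. Cacng4 had 188 and 144 in siCtl and 235, 261 and 270 in siUpf1 (0.62, SE 0.173, adjusted p = 0.00107), and its call ended without siCtl replicate 3 (adjusted p = 0.13). Cacng8 had 132 and 132 against 164, 147 and 178, not overlapping. It was not called by DESeq2 (0.31, adjusted p = 0.205) and was called by edgeR (adjusted p = 0.0439). Cacng8 shares 91 nt of exon on its own strand with the annotated gene Gm23450.

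Several members lie side by side in the genome, by GENCODE M21 positions on GRCm38. Scn3a and Scn2a lie within 310.3 kb of chromosome 2 (65457118 to 65767447), and both rose. Scn1a, Scn9a and Scn7a lie within 514.1 kb further along (66270778 to 66784914), and there 1 rose, 1 was not called and 1 was silent. No other tested gene lay inside either stretch. Cacng7, Cacng8 and Cacng6, within 102.7 kb of chromosome 7 (3332955 to 3435667), ran from the most abundant of the gamma and TARP genes to a nearly silent one. Scn2b and Scn4b, both without a read, are neighbours within 36.4 kb of chromosome 9 (45117782 to 45154152).

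The annotation marks some transcripts as NMD candidates. At least 1 such transcript was annotated for 5 of the 22 expressed members (22.7%), namely Cacna1b, Cacna1h, Cacna1i, Scn1a and Scn2a, and for 28.4% of tested protein-coding genes. Of the 11 members called higher 2 had one, and of the 3 called lower 1 had one. Over all tested protein-coding genes the share was 26.9% among those called higher, 31.2% among those called lower and 27.7% among those not called. Counts per gene do not separate these transcripts from the others. Expressed members had long transcripts, with a median of 6925.5 nt and 27 exons in the representative transcript against 2957 nt and 9 exons for tested protein-coding genes, and a median GC content of 55.3% against 50.9%. With the trend with length and GC content removed, 10 members were called higher and 4 lower and the median log2 fold change was 0.25.

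Genes that act on these channels or are related to them were examined as a list of 56, of which 45 were expressed. Of the 45, 28 (62.2%) were called, 18 (40%) higher and 10 (22.2%) lower, beside 43.7%, 21.4% and 22.3% of all tested genes, and the median log2 fold change was 0.10. The share called lower was thus close to that of all tested genes. The axon initial segment anchors and ubiquitin ligases, which fix sodium channels in place or remove them, had all 6 expressed genes called, 5 higher and 1 lower. Nfasc, which encodes the adhesion protein neurofascin of the initial segment, had 353 and 315 normalised counts in siCtl and 713, 673 and 727 in siUpf1 (1.08, SE 0.111, adjusted p = 3.91e-21). None of the 4 RGK GTPases, inhibitors of calcium channels, was called, and neither were the 2 expressed fibroblast growth factor homologous factors, which bind sodium channel tails.

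Among the 8 expressed calcium sensors and CaM kinase II genes 4 were called higher and 3 lower. Of all tested genes, 21.4% were called higher and 22.3% lower. Cabp1, a calcium-binding protein that modulates calcium channels, had 971 and 1025 normalised counts in siCtl and 1644, 1637 and 1537 in siUpf1 (0.69, SE 0.074, adjusted p = 6.43e-19). Camk2b, a CaM kinase II subunit, had 135 and 150 against 59.6, 57.7 and 70.4 (-1.18, SE 0.243, adjusted p = 5.73e-06). Of the other CaM kinase II genes, named after their values were seen, Camk2a (0.29) and Camk2d (0.34) were called higher and Camk2g (-0.19) lower. The direction thus differed inside the list. Stac, an adaptor that promotes calcium channel function, had 797 and 839 in siCtl and 1412, 1441 and 1408 in siUpf1 (0.80, SE 0.077, adjusted p = 1.03e-23). Its relatives differed: Stac2 was called lower (-0.46, adjusted p = 8.81e-05) and Stac3 was not called (0.18). Itpr3, a calcium release channel of the endoplasmic reticulum, had 139 and 114 against 49.8, 59.0 and 56.2 (-1.21, SE 0.260, adjusted p = 1.59e-05). Its relative Itpr2 was called higher (0.41, adjusted p = 0.00132), and Itpr1 was not called (-0.06). These relatives were named after their values were seen.

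Of the 9 regulators of channel transcription and splicing, 3 were called higher, 3 lower and 3 not called. Among all tested genes, 21.4% were called higher and 22.3% lower. Rbfox1, a neuronal splicing factor, had 66.0 and 77.4 normalised counts in siCtl and 157, 136 and 145 in siUpf1 (1.02, SE 0.229, adjusted p = 3.39e-05). Srrm4, which promotes neuronal microexons, had 1567 and 1386 against 2085, 2137 and 2456 (0.59, SE 0.080, adjusted p = 1.73e-12). Both stood higher in every siUpf1 library. Fmr1, which encodes the RNA-binding protein FMRP, had 1254 and 1321 in siCtl and 925, 783 and 774 in siUpf1 (-0.64, SE 0.091, adjusted p = 3.21e-11). Rest, the repressor of neuronal genes, was also called lower (-0.28, adjusted p = 6.95e-04) and is named outside the rule, after its values were seen. Also outside the rule, Ptbp1 was the remaining gene of this list called lower (-0.45, adjusted p = 1.97e-26). The remaining gene called higher was Rbfox2 (0.26, adjusted p = 1.86e-06). Rcor1, of the same list, was not called (-0.02, adjusted p = 0.882).

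**Figure D5:**
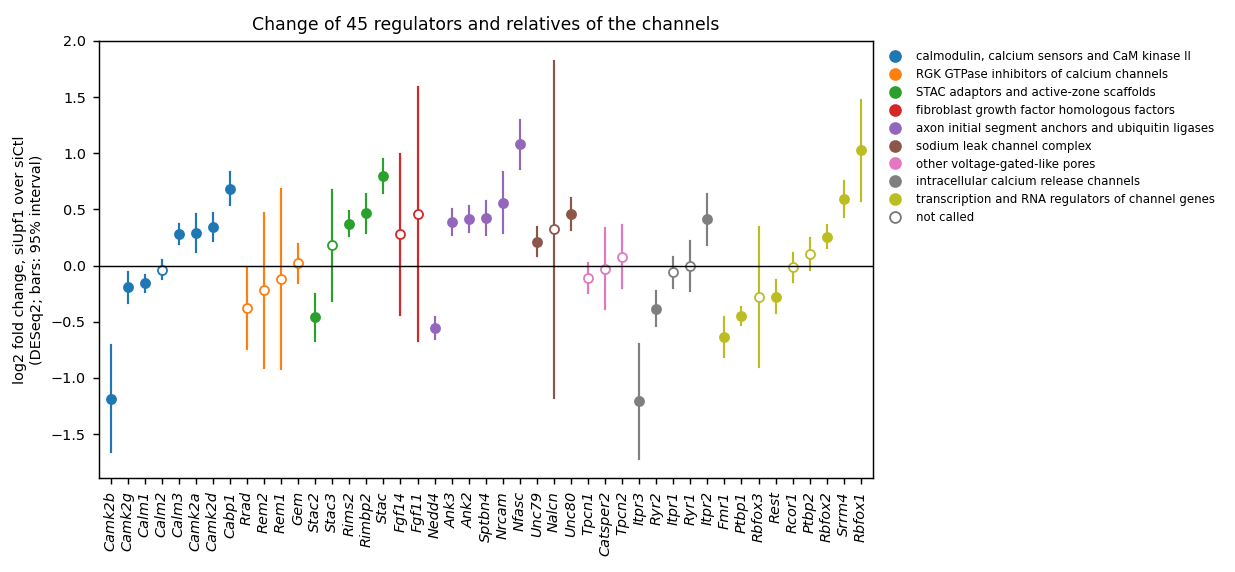
Log2 fold change in siUpf1 against siCtl of the 45 expressed genes that act on the channels or are related to them, with bars for the 95% confidence interval. Colours mark lists and open circles mark genes that were not called. The expressed axon initial segment anchors and ubiquitin ligases are all called, 5 higher and 1 lower, and none of the 4 RGK GTPases is called.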

How the data were processed

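RNA-seq was analysed from 5 libraries of poly(A)-selected, strand-specific RNA (2 siCtl, 3 siUpf1), grouped by their labels. The deposited table held raw read counts by gene, neither normalised nor pooled. To make them, the authors mapped reads to GRCm38.p6 with STAR and counted exonic reads on the reverse strand with featureCounts (Subread), with a GENCODE M22 or M25 annotation; versions in the submitters' processing notes are STAR 2.7.0f and Subread 1.6.4.

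Counts of siUpf1 against siCtl were tested over all genes with the Wald test of DESeq2 (1.42.0, in R 4.3.3, group as the only term, independent filtering, Benjamini-Hochberg adjustment), and genes with an adjusted p under 0.05 were called. The tool and the threshold are those of the study's methods, which name no further settings. The adjusted p-values given are from that test unless edgeR is named. Means carry the SD between libraries, and 18 of the 40 channel genes had no adjusted p. RPKM used the summed length of a gene's exons in GENCODE M21, matched by identifier without version for 99.8% of genes; 4 members (Cacna1a, Cacna1d, Cacna1e, Scn3a) have another version there. A mean of 10 normalised counts separated expressed from low genes. Intervals and counts cover spread between libraries only, since PCR duplicates cannot be recognised.

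Every channel gene was named except 2 that are not reported here, although counts over the set include them, with Upf1 and the 8 called regulators of largest absolute log2 fold change and a mean of at least 10 normalised counts. The members and lists were chosen with earlier results of these data known. Alternatives were edgeR's quasi-likelihood test (4.0.16), TMM and total-count scaling, a minimum of 10 counts in 2 libraries, no filtering, the longest transcript as the length for RPKM, a mean of 50 for expressed genes, the replicate number as a block, each library left out in turn and, chosen after seeing the data, removal of the trend with transcript length and GC content. Scripts were tested on simulated data.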

Additional observations from a re-analysis of the deposited data

How the results depend on the processing

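The number of channel genes called higher was 9 to 11 over the omissions of 1 library and 10 to 12 in the other settings. The number called lower was 1 to 3 over these omissions, with 1 without siCtl replicate 3. Over the same omissions, all genes called numbered 4758 to 6074, with 2387 to 2949 higher and 2371 to 3125 lower, and the median log2 fold change of expressed channel genes was 0.25 to 0.35. Without 1 siCtl library, the remaining siCtl library is assumed to vary like the siUpf1 libraries. Same-numbered libraries did not deviate together (correlation -0.0755 for number 1 and -0.0907 for number 3), so the numbers were not taken as pairs. Under the replicate block, 3935 genes were called (1964 higher, 1971 lower), 10 channel genes were higher and 1 was lower. The calls lost included Cacna1a and Cacng4 (adjusted p = 0.122 and 0.0787). Their log2 fold changes were -0.54 and 0.61 under the block, against -0.53 and 0.62 without it. Their SEs were 0.274 and 0.279, against 0.165 and 0.173. Replicate 2 of siUpf1 has no siCtl library of the same number. The sign of Cacna2d2, not called in any setting, turned positive under the block (0.052), without siCtl replicate 3 and without siUpf1 replicate 2 (-0.27 to 0.21 over the omissions), and that of Scn9a turned negative with the length and GC trend removed (-0.018). The cause was not tested. Depth limited the 14 members with few reads, which had no adjusted p.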
